A study of Homo sapiens with 18 samples.

Results

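The 10 genes that mark the identity of serous ovarian carcinoma, PAX8, SOX17, MECOM, WT1, ESR1, FOLR1, MSLN, WFDC2, CDH6 and CCNE1, were followed by RNA sequencing in OVCAR3, an established cell line from a high-grade serous ovarian carcinoma. They were chosen by name from the 55765 gene symbols in the count tables, and all 10 members were found in both tables and passed the filter on low counts in every comparison. Each gene had 3 libraries in each of 6 groups, 18 libraries in all. All cells grew in RPMI medium with a low share of fetal bovine serum. The first series compared cells given natural non-specific human IgA, cells given non-specific human IgG (0.5 µg/ml each) and untreated cells. The second series used IgA against BDNF or IgA against TSPAN7, made by immortalized B cells from ovarian tumours, at the same dose, beside its own untreated cells. The labels give 24 h of incubation, whereas another description of the experiments gives a shorter one. All groups were 1 cell line, and the labels do not say that the libraries of a group came from separate cultures. A figure legend of the paper gives 3 experiments for the non-specific antibodies and only n = 3 where the tumour-derived IgA are shown. The p-values measure the spread between these libraries, which may be technical. The comparisons ask whether genes that define this tumour type differed between antibody-treated and control cells. In a pool of cells, fewer cells that express a gene and less of its RNA per cell cannot be told apart.

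High-grade serous carcinoma is thought to arise mostly from the secretory epithelium of the fallopian tube, which develops from the Müllerian duct. PAX8 and SOX17 are transcription factors of that lineage that act together, MECOM encodes a zinc-finger transcription factor that is often amplified in these tumours, WT1 is a transcription factor used by pathologists to tell serous from other ovarian carcinomas, and ESR1 encodes the oestrogen receptor alpha. FOLR1, the folate receptor alpha, MSLN, mesothelin, and CDH6, a cadherin of cell contacts, are surface proteins against which antibody drugs are directed. WFDC2 encodes HE4, a secreted protein measured in blood as a tumour marker. CCNE1 encodes cyclin E1, which with the kinase CDK2 drives cells into S phase, and OVCAR3 is known for an amplification of this gene.

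The genes lie on 9 chromosomes of GRCh37 in the GENCODE annotation. PAX8 is at chr2:113973574-114036498, MECOM at chr3:168801287-169381563, CDH6 at chr5:31193793-31329253, and ESR1 at chr6:151977826-152450754. WT1 (chr11:32409321-32457110) and FOLR1 (chr11:71900602-71907367) share a chromosome, MSLN is at chr16:810734-818865, CCNE1 at chr19:30302898-30315219 and WFDC2 at chr20:44098393-44110172. Annotated genes on the other strand overlap 6 of them (PAX8, MECOM, WT1, ESR1, FOLR1 and CDH6), and share exon bases with 3 (PAX8, WT1 and CDH6). PAX8-AS1 covers 60585 bases of PAX8, 1651 of them exonic on both strands, WT1-AS overlaps the first 47 bases of WT1, and an unnamed non-coding gene shares 125 exon bases with CDH6. Whether strand was used in counting is not given, so reads from those shared bases cannot be assigned to either partner.

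The bases in front of the start of WT1, CCNE1 and PAX8 are shown because WT1 and CCNE1 fell and PAX8 rose with non-specific IgA. They were read from RefSeq promoters (GRCh38.p14), which hold 6 of the 10 members, and matched exactly to GRCh37, at chr11:32457111-32457335 for WT1 and chr2:114036499-114036748 for PAX8 (both minus strand) and at chr19:30302648-30302897 for CCNE1 (plus strand). Each runs 5′ to 3′ on the strand of its gene and ends at the last base before the annotated gene. Capitals mark any match on either strand to GGGCGG (the GC box), CCAAT (the CCAAT box), TATAAA (the TATA box), TGACTCA (the AP-1 motif). They also mark the E2F motif, searched as TTGGCGC and as its variants TTCCCGC, besides which TTCGCGC was searched, and TTGCCGC.
WT1: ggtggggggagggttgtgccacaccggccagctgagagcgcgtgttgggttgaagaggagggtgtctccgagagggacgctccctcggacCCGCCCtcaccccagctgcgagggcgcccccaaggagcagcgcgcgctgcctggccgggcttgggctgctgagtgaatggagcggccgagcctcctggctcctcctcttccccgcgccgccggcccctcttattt
CCNE1: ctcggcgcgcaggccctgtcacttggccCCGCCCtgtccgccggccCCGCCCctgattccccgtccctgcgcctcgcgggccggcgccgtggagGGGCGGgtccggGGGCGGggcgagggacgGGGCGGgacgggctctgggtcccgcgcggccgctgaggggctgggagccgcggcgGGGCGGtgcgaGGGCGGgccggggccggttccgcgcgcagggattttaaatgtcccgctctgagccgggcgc
PAX8: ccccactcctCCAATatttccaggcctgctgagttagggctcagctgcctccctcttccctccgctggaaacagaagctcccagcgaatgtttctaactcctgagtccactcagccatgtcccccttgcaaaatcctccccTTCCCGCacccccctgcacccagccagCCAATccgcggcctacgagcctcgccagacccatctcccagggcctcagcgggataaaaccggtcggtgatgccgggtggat

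The CCNE1 sequence held 7 GC boxes, the WT1 sequence held 1 and the PAX8 sequence held none, and a GC box stood in 42.6% of all 35116 promoters over the 250 bases before the start. PAX8 held 2 CCAAT boxes (in 32% of all promoters) and 1 E2F motif (in 10.9%). No TATAAA (10.7%) or TGACTCA (4.2%) was in any of the 3 windows shown. RefSeq holds 4 windows for WT1, for different starts, of which the one at the annotated end of the gene is shown. Of the other 3, at starts inside the gene, 1 held a TGACTCA and none held another of the motifs. The CCNE1 window was 81.2% G and C, against 70.4% in the whole WT1 window and 61.6% in PAX8. The WT1 bases shown lie inside WT1-AS, which runs the other way from position 32457064. These matches describe letters only.

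The depth of the first series was 27920733 to 42371474 counts per library and that of the second 39254350 to 47381836. A member had between 216 (ESR1) and 32778 counts (CDH6) in a library. Normalised counts below are counts divided by TMM-corrected depth and brought back to the average depth of the series, and errors are SDs of 3 libraries. Spread among replicates was widest with non-specific IgA. The median coefficient of variation of the 10 members was 25.0% with non-specific IgA, 9.55% with IgG and 9.32% in the untreated cells beside them, against 7.40% with BDNF IgA, 3.70% with TSPAN7 IgA and 4.80% in the untreated cells of the second series. IgA replicate 3 stood apart. The mitochondrial genome gave 19.1% of its counts, against 5.75% to 8.32% in the other 8 libraries of that series. Results for the called members, several gene lists and some list genes are therefore also given without this library. Most other results with non-specific IgA include it. In the second series BDNF IgA replicate 2 lay below replicates 1 and 3 in FOLR1, MSLN and WFDC2.

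Epithelial markers were high throughout, with a summed normalised count of 7 keratin, claudin and adhesion genes between 104507 and 133585 in every library. Markers of blood cells were close to 0, with a sum of 9 genes between 34.4 and 75.1 and CD3E, CD2 and MS4A1 at 2 counts or fewer in every library. The sum of 3 endothelial markers (of 4 listed) was at most 81.9. Of 7 fibroblast markers, COL3A1 and PDGFRB had at most 7 counts, whereas the collagen genes COL1A1 and COL1A2 had from 514 to 3160, and the list summed to between 2400 and 4892 with non-specific IgA, 2084 and 2298 with IgG and 2237 and 2468 in untreated cells. Of 6 mesothelial markers UPK3B and KRT5 were well counted, CALB2 had at most 16 counts and ITLN1 none. WT1 and MSLN are themselves mesothelial as well as serous genes.

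Per kilobase of annotated exon, WFDC2 had the highest level of the 10 in all 6 groups and ESR1 the lowest. In the untreated cells of the first series the mean level per kilobase was 8104 ± 298 for WFDC2, 3021 ± 396 for FOLR1, 2546 ± 258 for PAX8, 2178 ± 73.8 for CDH6 and 1702 ± 145 for CCNE1. It was 1023 ± 118 for SOX17, 977 ± 104 for MSLN, 630 ± 4.95 for MECOM, 586 ± 40.1 for WT1 and 20.2 ± 6.65 for ESR1. The libraries of neighbours in that order overlapped for FOLR1 and PAX8, for SOX17 and MSLN, and for MECOM and WT1, and were apart for the rest. In the untreated cells of the second series the order was WFDC2 (7821 ± 324), PAX8 (2457 ± 40.9), CDH6 (1928 ± 105), CCNE1 (1626 ± 11.1), MECOM (1598 ± 21.3), SOX17 (1004 ± 62.1), FOLR1 (787 ± 73.1), MSLN (605 ± 51.5), WT1 (499 ± 19) and ESR1 (73.6 ± 8.02). Only CCNE1 and MECOM overlapped as neighbours there. The series were normalised separately and levels were not tested between them.

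With non-specific IgA, against both IgG and untreated cells, the lineage factors SOX17 and WT1 fell to between 41.6% and 44.3% of their control levels, FOLR1, CCNE1 and CDH6 also fell, and PAX8 rose. The remaining genes, MECOM, ESR1, MSLN and WFDC2, did not pass the test in either comparison. Of the 10 members 1 rose and 5 fell against IgG (adjusted p under 0.05, edgeR), where 12.7% of the 18012 genes tested were called higher and 11.6% lower. Against untreated cells the same 1 gene rose and the same 5 fell, with 12.9% of all genes called higher and 12.2% lower. The median log2 fold change of the members was -0.32 against IgG and -0.40 against untreated cells, with -0.01 for all genes in both. These comparisons share the IgA libraries and are not independent. With scaling by library size alone, which moves the median over all genes (log2 fold change) to -0.25 against IgG and -0.22 against untreated cells, all-gene calls went from 2281 higher and 2096 lower to 865 and 3647 against IgG, and from 2332 and 2199 to 989 and 3297 against untreated cells. Without IgA replicate 3, 0 rose and 3 fell against IgG (SOX17, WT1 and CCNE1), and 0 rose and 5 fell against untreated cells (SOX17, MECOM, WT1, CDH6 and CCNE1). Over all genes 13.1% were then called higher and 13% lower against IgG, and 13.3% and 13% against untreated cells. The part of the high mitochondrial share of replicate 3 in these results was not tested. Nor was that of the collagen genes COL1A1 and COL1A2, which were called higher with IgA against IgG but not against untreated cells.

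**Figure D1:**
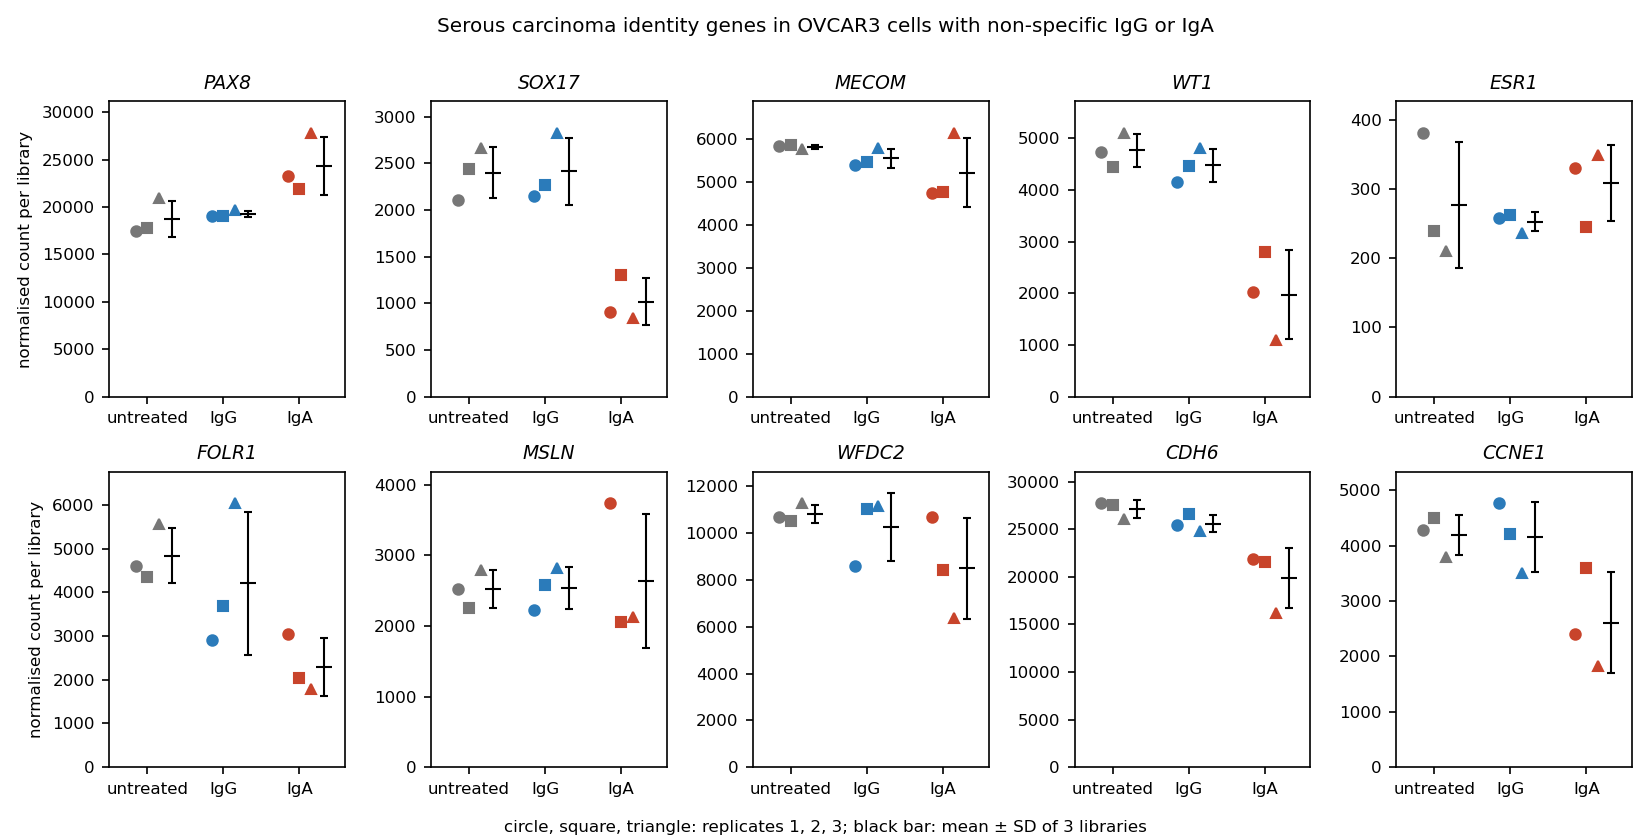
Normalised count (vertical axes, from 0, a scale for each gene) of the 10 genes in each library of the first series, by group, with symbols for replicates 1 to 3 and black bars for mean ± SD of 3 libraries. SOX17 and WT1 lie lower in all 3 IgA libraries (842 to 1306 and 1093 to 2807) than in any control library, PAX8 lies higher, and IgA replicate 3 is the lowest of its group for SOX17, WT1, FOLR1, WFDC2, CDH6 and CCNE1.

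SOX17 (chr8:55370495-55373452), which acts with PAX8, fell in both comparisons. Its normalised counts were 907, 1306 and 842 in IgA replicates 1 to 3, against 2145, 2271 and 2825 with IgG and 2110, 2435 and 2659 in untreated cells. Every IgA library lay below every control library. The log2 fold change was -1.24 (SE 0.16, adjusted p = 2.16e-04) against IgG and -1.23 (SE 0.16, adjusted p = 2.05e-04) against untreated cells, which leaves 42.3% and 42.5% of the control level. The call held in all alternatives run, including without IgA replicate 3 (-1.13 and -1.12).

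WT1 had normalised counts of 2028, 2807 and 1093 with IgA, 4152, 4464 and 4800 with IgG, and 4739, 4449 and 5100 in untreated cells. The IgA libraries were all below the controls but differed among themselves by more than the controls did, with replicate 3 the lowest. The log2 fold change was -1.17 (SE 0.25, adjusted p = 0.00694) against IgG and -1.26 (SE 0.25, adjusted p = 0.00456) against untreated cells. It was smaller without replicate 3, -0.89 and -0.98, and still called. WT1-AS, the non-coding gene that runs away from the start of WT1 on the other strand, fell with it, with 222, 260 and 148 normalised counts with IgA against 343, 382 and 512 with IgG (log2 fold change -0.96, SE 0.23, adjusted p = 0.00828) and 347, 377 and 487 in untreated cells (-0.93, SE 0.23, adjusted p = 0.00936). Without IgA replicate 3 both calls remained (-0.77 and -0.75). WT1-AS shares its first bases and possibly reads with WT1, and its counts were far lower.

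PAX8 was the member that rose. It had 23318, 21885 and 27819 normalised counts with IgA, 19075, 19099 and 19676 with IgG and 17506, 17840 and 20949 in untreated cells, so that the IgA libraries lay above all controls. The rise was 26.2% against IgG (log2 fold change 0.34, SE 0.11, adjusted p = 0.0381) and 29.7% against untreated cells (0.38, SE 0.11, adjusted p = 0.0228). The call was lost without IgA replicate 3 (0.23, adjusted p = 0.103, and 0.27, adjusted p = 0.0576) and without IgG replicate 1, 2 or 3 (adjusted p from 0.0875 to 0.120) or untreated replicate 1 or 2 (0.108 and 0.0957). Fitting only the 6 libraries compared also ended it (adjusted p = 0.0727 and 0.0598). With library size alone as the scaling the PAX8 values were 0.09 and 0.15 and not called, above the shifted medians of all genes.

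MECOM and ESR1 did not pass the test. MECOM had 4747, 4775 and 6146 normalised counts with IgA, where replicate 3 was above and replicates 1 and 2 below the 5395 to 5804 with IgG and 5782 to 5874 in untreated cells. Its log2 fold change was -0.09 (95% interval -0.32 to 0.14) against IgG and -0.16 (-0.39 to 0.07) against untreated cells. Against untreated cells it was called lower without replicate 3 (-0.29, adjusted p = 0.0190). It was also called lower with scaling by library size, at -0.34 and -0.38, against the shifted medians above. ESR1 was thinly counted, with 331, 246 and 349 normalised counts with IgA, 258, 263 and 237 with IgG and 381, 240 and 210 in untreated cells. The groups overlapped, and the intervals of its log2 fold change ran from -0.20 to 0.77 against IgG and from -0.33 to 0.64 against untreated cells.

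Among the surface and secreted proteins, FOLR1 and CDH6 fell. FOLR1 had 3035, 2043 and 1780 normalised counts with IgA, against 2898, 3676 and 6031 with IgG and 4598, 4355 and 5556 in untreated cells. IgA replicate 1 lay above IgG replicate 1, so these groups overlapped, while all IgA libraries were below the untreated ones. The log2 fold change was -0.88 (SE 0.26, adjusted p = 0.0341) against IgG and -1.08 (SE 0.26, adjusted p = 0.0137) against untreated cells. The call against IgG was lost without IgA replicate 2 or 3 (-0.80 and -0.73) or IgG replicate 2 or 3 (-0.97 and -0.53), and that against untreated cells without IgA replicate 3 (-0.93, adjusted p = 0.0867) or untreated replicate 3 (-0.97, adjusted p = 0.0573). Both were lost with no filter on low counts (adjusted p = 0.171 and 0.0925) and with limma voom (0.197 and 0.0987).

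CDH6 had 21832, 21593 and 16240 normalised counts with IgA, 25408, 26586 and 24766 with IgG and 27710, 27558 and 26049 in untreated cells. The IgA libraries were the lowest, replicate 3 most of all. The log2 fold change was -0.36 (SE 0.11, adjusted p = 0.0318) against IgG and -0.45 (SE 0.11, adjusted p = 0.0115) against untreated cells, or 77.7% and 73.4% of the control levels. Against IgG the call was lost without IgA replicate 3 (-0.24, adjusted p = 0.0624) or IgG replicate 1, 2 or 3 (adjusted p from 0.0623 to 0.109), or with only the 6 libraries compared (0.0778), whereas against untreated cells it held without any 1 library (-0.32 without IgA replicate 3).

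MSLN and WFDC2 did not pass the test and varied widely with IgA. MSLN had 3735, 2057 and 2128 normalised counts, around the 2223 to 2822 with IgG and 2259 to 2797 in untreated cells, with replicate 1 above and replicates 2 and 3 below them. Its log2 fold change was 0.06 in both comparisons (95% intervals -0.37 to 0.49 in each), but it turned to -0.28 in each without IgA replicate 1, and to -0.17 and -0.14 with scaling by library size. WFDC2 had 10668, 8432 and 6369 normalised counts with IgA, against 8591 to 11143 with IgG and 10509 to 11268 in untreated cells. Its log2 fold change was -0.27 (95% interval -0.61 to 0.06) against IgG and -0.35 (-0.69 to -0.01, adjusted p = 0.118) against untreated cells. Without IgA replicate 1 it was called lower in both (-0.47, adjusted p = 0.0341, and -0.55, adjusted p = 0.0178), and against untreated cells also with scaling by library size (-0.54, adjusted p = 0.0473) and with no filter (-0.36, adjusted p = 0.0101).

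CCNE1, the cell-cycle gene among the members, had 2402, 3601 and 1826 normalised counts with IgA, 4760, 4203 and 3503 with IgG and 4281, 4489 and 3794 in untreated cells. IgA replicate 2 lay just above IgG replicate 3, and all IgA libraries were below the untreated ones. The log2 fold change was -0.67 (SE 0.20, adjusted p = 0.0302) against IgG and -0.68 (SE 0.20, adjusted p = 0.0274) against untreated cells, near 62.9% and 62.4% of the control levels. The calls held without IgA replicate 3 (-0.47 and -0.48) and were lost without IgA replicate 1 (-0.61, adjusted p = 0.101, and -0.62, adjusted p = 0.0939), IgG replicate 1 or 2 (adjusted p = 0.104 and 0.0793) or untreated replicate 1 or 2 (0.0752 and 0.0837). Against IgG the call was also lost with only the 6 libraries compared (adjusted p = 0.0572).

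**Figure D2:**
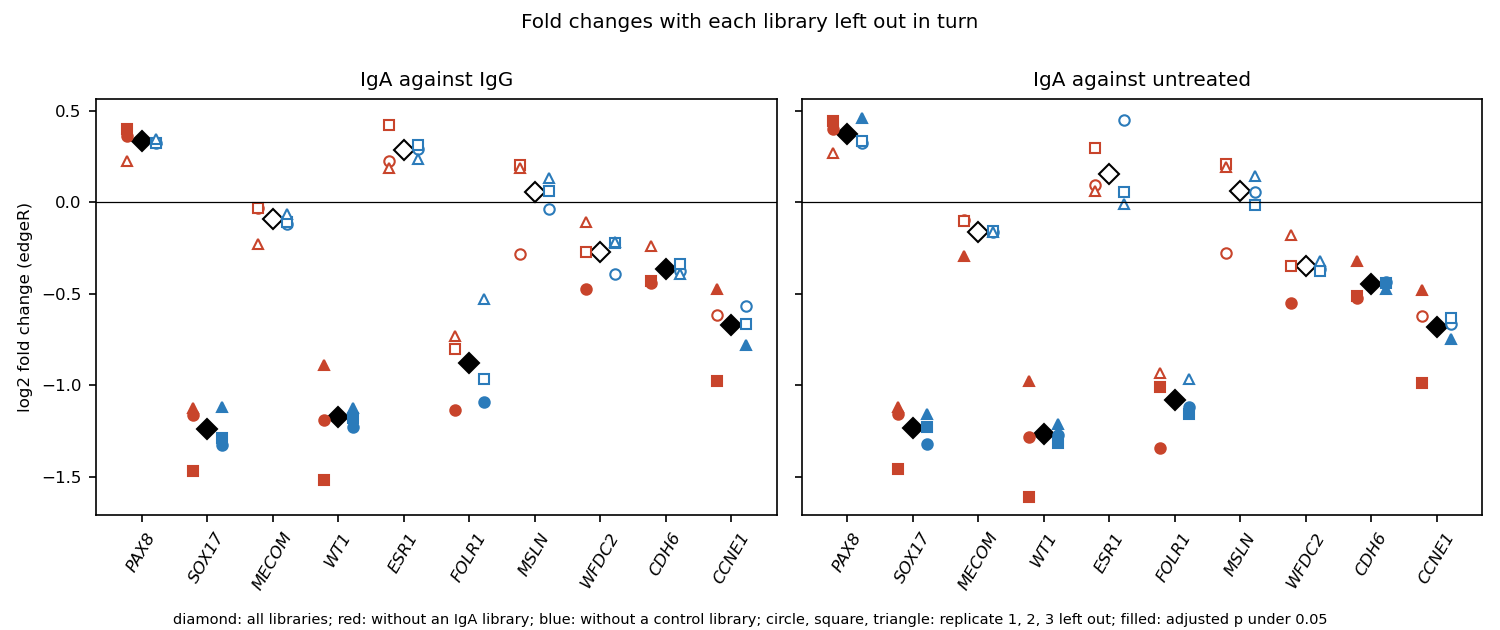
Log2 fold change (vertical axis) of the 10 genes with non-specific IgA against IgG (left) and untreated cells (right) in the fit of all libraries (black diamonds) and with each library left out in turn (red, an IgA library; blue, a control library; symbols give the replicate left out), filled where the adjusted p was under 0.05. SOX17 and WT1 stay filled, at -0.89 or lower, throughout, and MSLN crosses 0 without IgA replicate 1.

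The neighbours of CCNE1 on chromosome 19 moved in different directions. Of 6 listed genes 5 were tested, and 1 rose and 2 fell with non-specific IgA in each comparison. Over all genes 12.7% were called higher and 11.6% lower against IgG, and 12.9% and 12.2% against untreated cells. The counts in so short a list were not tested against those shares. URI1, which encodes a prefoldin-like protein and starts 99.3 kb beyond CCNE1, fell with IgA (log2 fold change -0.46, adjusted p = 0.0360 against IgG, and -0.54, adjusted p = 0.0166 against untreated cells), as did C19orf12, a mitochondrial protein gene 96.2 kb before it (-0.52, adjusted p = 0.0127, and -0.47, adjusted p = 0.0190). PLEKHF1, which encodes an endosomal protein and lies 137 kb before CCNE1, rose (0.52, adjusted p = 0.0263, and 0.58, adjusted p = 0.0153). POP4 (-0.32 and -0.30) and UQCRFS1 (0.13 and 0.19) were not called. Without IgA replicate 3 the call of URI1 against IgG was lost (-0.28, adjusted p = 0.0565), which left 1 higher and 1 lower. The all-gene shares were then 13.1% and 13%.

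**Figure D3:**
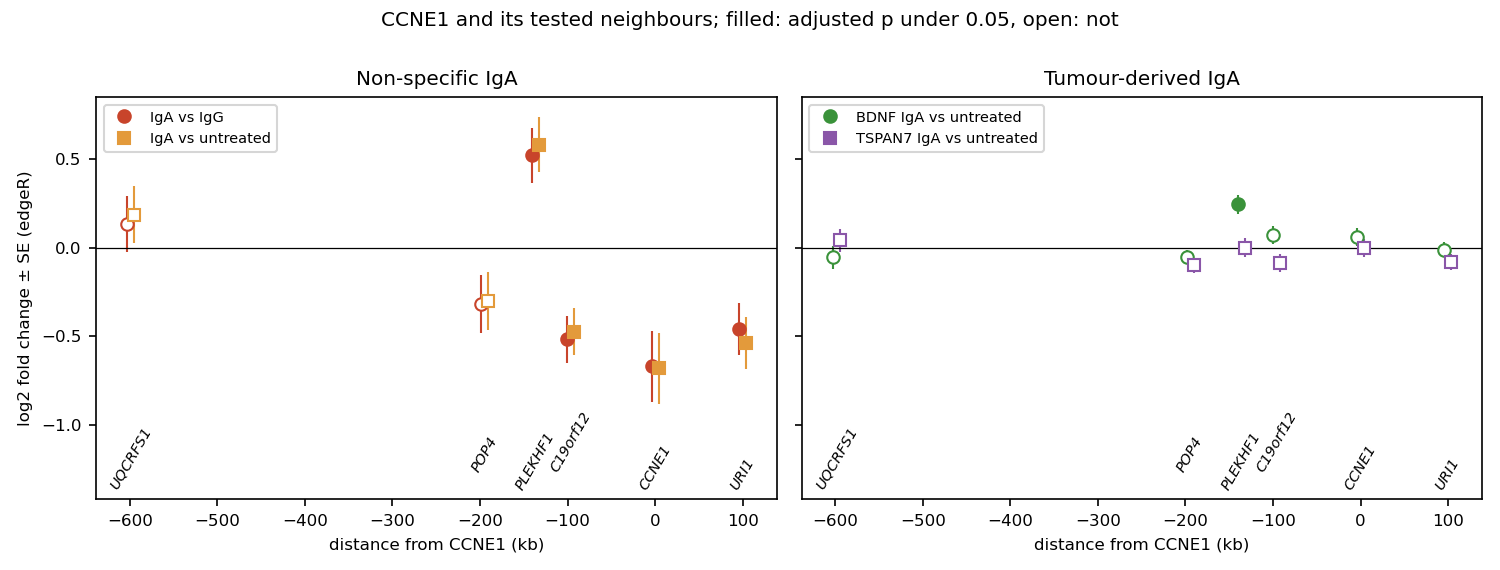
Log2 fold change ± SE (vertical axis) of CCNE1 and the 5 tested neighbouring genes by distance from CCNE1 in kb (horizontal axis, between nearest gene ends), for non-specific IgA (left) and the tumour-derived IgA (right), filled where the adjusted p was under 0.05. With non-specific IgA, PLEKHF1 stands at 0.52 and 0.58 between genes with negative values, and it is the filled point with BDNF IgA, at 0.25.

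With IgG against untreated cells none of the 10 members was called in either direction, as for all 18012 genes, of which 0% were called higher and 0% lower by edgeR. DESeq2 also called 0, and 86 genes had an unadjusted p under 0.05. The main fit shares the spread of a gene over all groups of the series, and that spread was widest with IgA. Differences between IgG and untreated cells could therefore be missed, and the absence of calls does not show that there were none. With only the 6 libraries compared, 0 genes were called as well. The log2 fold changes of the members ran from -0.20 (FOLR1, 95% interval -0.78 to 0.37) to 0.04 (PAX8, -0.19 to 0.27), with a median of -0.07. For SOX17 the value was 0.01 (-0.34 to 0.35) and for WT1 -0.09 (-0.63 to 0.45).

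In the second series, which was not tested against the first, WT1, PAX8, MSLN and WFDC2 were called in 1 or more comparisons. With BDNF IgA, PAX8 and MSLN rose against untreated cells and no member fell, where 4.43% of the 18732 genes tested were called higher and 3.42% lower. With TSPAN7 IgA, WT1 fell and no member rose, where 4.54% of all genes were called higher and 4.15% lower. The medians of the members were 0.04 with BDNF IgA and -0.12 with TSPAN7 IgA, against 0.0022 and -7.2e-04 for all genes. Both comparisons use the same untreated libraries. Compared directly, TSPAN7 IgA was lower than BDNF IgA in 3 members (WT1, MSLN and WFDC2) and higher in none, with 3.36% of all genes called higher and 4.37% lower.

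**Figure D4:**
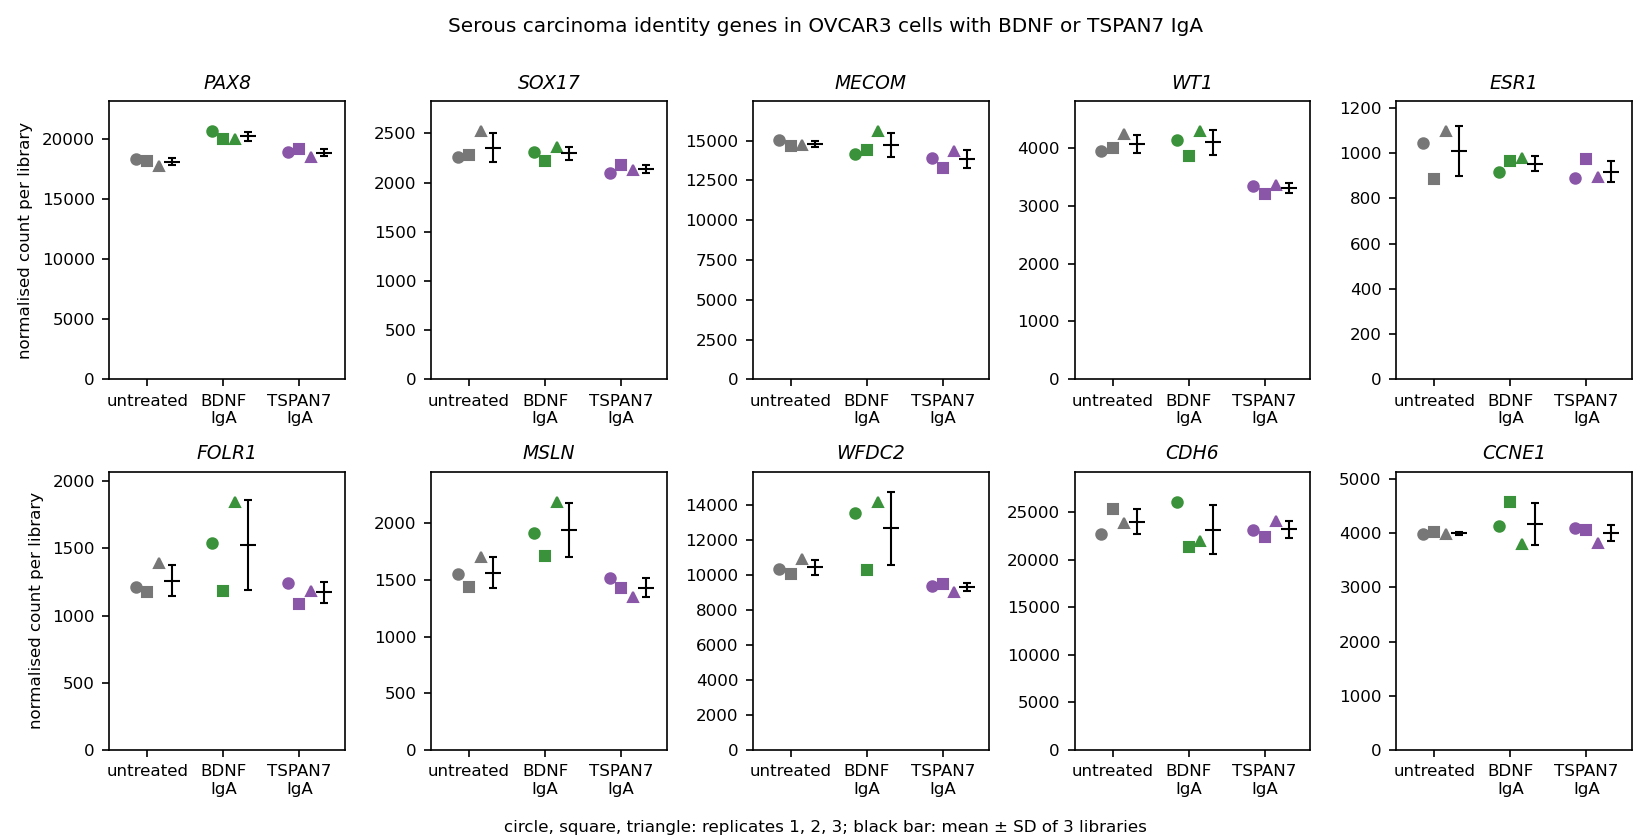
Normalised count (vertical axes, from 0, a scale for each gene) of the 10 genes in each library of the second series, with symbols for replicates 1 to 3 and black bars for mean ± SD of 3 libraries. WT1 is lower in all 3 libraries with TSPAN7 IgA (3205 to 3366) than in any other, PAX8 is higher in all 3 with BDNF IgA (20019 to 20679), and BDNF IgA replicate 2 is low in FOLR1, MSLN and WFDC2.

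WT1 had 3335, 3205 and 3366 normalised counts with TSPAN7 IgA, against 4141, 3858 and 4292 with BDNF IgA and 3951, 3994 and 4238 in untreated cells. The TSPAN7 libraries were close together and below all 6 others. The log2 fold change was -0.30 (SE 0.05, adjusted p = 1.62e-04) against untreated cells and -0.31 (SE 0.05, adjusted p = 3.47e-04) against BDNF IgA, and both calls held in all alternatives run. With BDNF IgA it was 0.01 (95% interval -0.09 to 0.11) against untreated cells. WT1-AS had 311, 278 and 288 normalised counts with TSPAN7 IgA and 324, 324 and 315 in untreated cells, a log2 fold change of -0.13 (SE 0.10, adjusted p = 0.482).

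PAX8 rose with BDNF IgA by 11.8%, from 18356, 18209 and 17776 normalised counts in untreated cells to 20679, 20019 and 20046. The groups did not overlap, and the log2 fold change was 0.16 (SE 0.04, adjusted p = 0.0103). The call was lost without BDNF IgA replicate 1 (0.15, adjusted p = 0.0634) or untreated replicate 3 (0.15, adjusted p = 0.0540). With TSPAN7 IgA PAX8 had 18962, 19153 and 18530, a log2 fold change of 0.06 (95% interval -0.02 to 0.14). The difference between the antibodies was -0.10 for TSPAN7 against BDNF IgA (adjusted p = 0.116), which did not pass the test.

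MSLN had 1918, 1709 and 2191 normalised counts with BDNF IgA, 1514, 1432 and 1347 with TSPAN7 IgA and 1553, 1437 and 1703 in untreated cells. It was 23.9% higher with BDNF IgA than in untreated cells (log2 fold change 0.31, SE 0.08, adjusted p = 0.0245) and fell with TSPAN7 IgA against BDNF IgA (-0.44, SE 0.08, adjusted p = 0.00409). The first call was lost without BDNF IgA replicate 1 or 3 (adjusted p = 0.0700 and 0.0969) or untreated replicate 1 or 2 (0.0820 and 0.104), and the second held in all alternatives run. Against untreated cells TSPAN7 IgA gave -0.13 (95% interval -0.30 to 0.04).

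WFDC2 and FOLR1 followed the same libraries. WFDC2 had 13547, 10304 and 14199 normalised counts with BDNF IgA, with replicate 2 at the level of the untreated cells (10331, 10075 and 10918), and 9360, 9483 and 9055 with TSPAN7 IgA, below all of those. It was not called with BDNF IgA (log2 fold change 0.28, SE 0.11, adjusted p = 0.178), and was lower with TSPAN7 than with BDNF IgA (-0.45, SE 0.11, adjusted p = 0.0467). That call was lost without BDNF IgA replicate 1 or 3 (adjusted p = 0.141 and 0.174), without TSPAN7 IgA replicate 1, 2 or 3 (0.0985 to 0.136) and with only the 6 libraries compared (0.0881). FOLR1 had 1541, 1183 and 1849 with BDNF IgA, 1240, 1089 and 1185 with TSPAN7 IgA and 1213, 1174 and 1393 in untreated cells, and no difference was called. Without BDNF IgA replicate 2, FOLR1 and WFDC2 were called higher with BDNF IgA than in untreated cells (0.42, adjusted p = 2.44e-04, and 0.41, adjusted p = 2.58e-09), so that 4 members rose, and both were lower with TSPAN7 than with BDNF IgA (-0.53, adjusted p = 1.04e-05, and -0.58, adjusted p = 6.58e-13), so that 4 members fell. Replicate 2 was singled out for its low values in FOLR1, MSLN and WFDC2. Larger differences in these genes without it follow from that choice, so these calls and p-values cannot serve as support. Calls rose over all genes too without that library, to 8.15% higher and 7.02% lower with BDNF IgA and to 8.34% higher and 9.17% lower for TSPAN7 against BDNF IgA. Of 7 epithelial markers 6 were then called higher with BDNF IgA (CDH1 by 0.37 and CLDN4 by 0.47), as were the collagen genes COL1A1 and COL1A2 (0.37 and 0.29), and their part in the result was not tested.

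SOX17, MECOM, ESR1, CDH6 and CCNE1 were not called in the second series. SOX17 had 2101, 2182 and 2132 normalised counts with TSPAN7 IgA, all below the 2260, 2285 and 2524 of untreated cells, and a log2 fold change of -0.14 (SE 0.05, adjusted p = 0.0972). It was called lower when only the 6 libraries compared were fitted (-0.14, adjusted p = 0.0497), as was WFDC2 (-0.17, adjusted p = 0.00142). MECOM had 13899, 13281 and 14352 with TSPAN7 IgA against 15018, 14640 and 14729 (-0.10, adjusted p = 0.191). ESR1, CDH6 and CCNE1 had log2 fold changes between -0.14 and 0.06 with either antibody, and for CCNE1 with TSPAN7 IgA the 95% interval was -0.11 to 0.11.

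**Figure D5:**
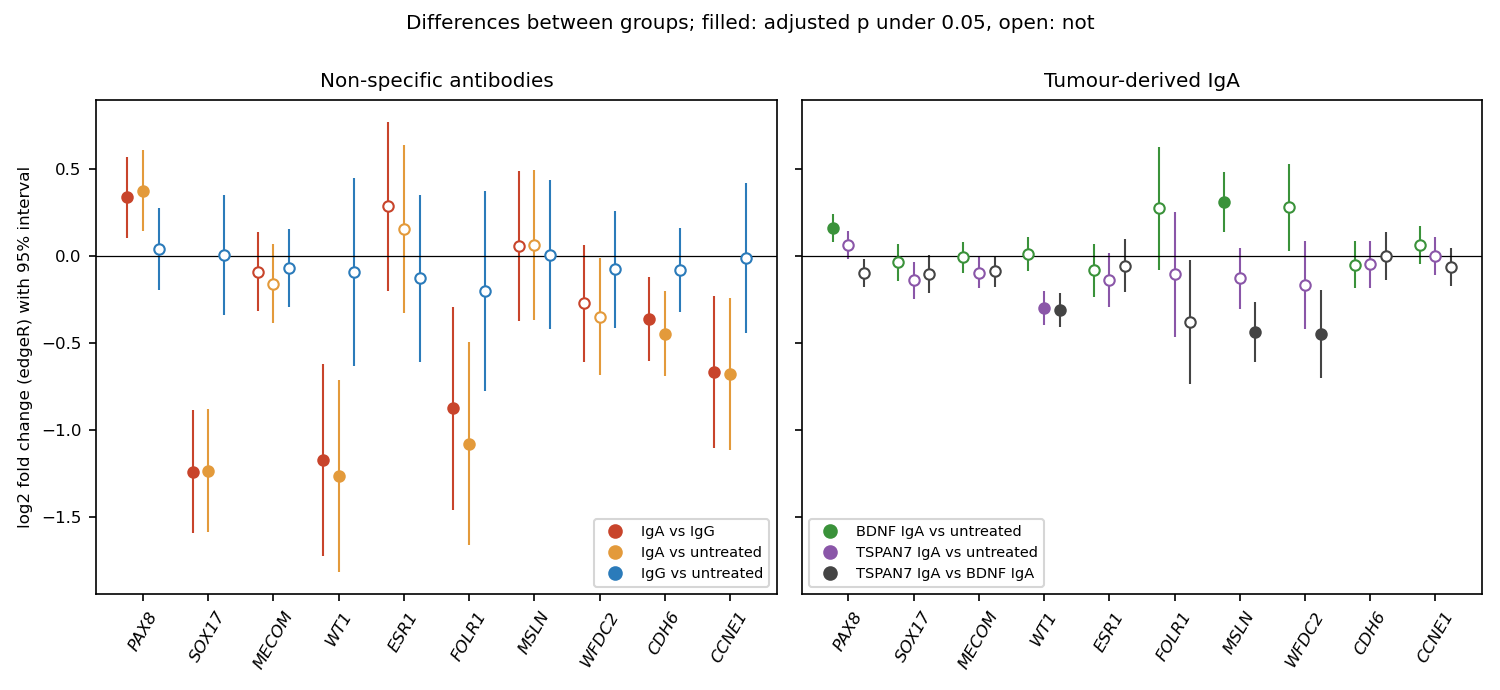
Log2 fold change from edgeR with 95% intervals (vertical axis) for the 10 genes in the 3 comparisons of the first series (left) and the 3 of the second (right), filled where the adjusted p was under 0.05. SOX17 (-1.24 and -1.23) and WT1 (-1.17 and -1.26) are the lowest points for non-specific IgA, all IgG points are open, and WT1 is the filled point for TSPAN7 IgA against untreated cells.

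Other genes of the Müllerian and serous programme were read from a list of 24. Of 21 tested with non-specific IgA, 1 rose and 6 fell against IgG, and 2 rose and 7 fell against untreated cells, with list medians of -0.34 and -0.35. Over all genes 12.7% were called higher and 11.6% lower against IgG, and 12.9% and 12.2% against untreated cells. Without IgA replicate 3, 2 of 22 rose and 6 fell against IgG, and 2 rose and 7 fell against untreated cells. The all-gene shares were then 13.1% higher and 13% lower, and 13.3% and 13%. The claudin gene CLDN3 fell most (log2 fold change -1.49, adjusted p = 0.00102, and -1.65, adjusted p = 5.03e-04), with the developmental transcription factors LHX1 (-0.98, adjusted p = 0.00799, and -0.93, adjusted p = 0.0101) and EMX2 (-0.70, adjusted p = 0.00467, and -0.86, adjusted p = 0.00125). CLDN4 (-0.52, adjusted p = 0.0119 against IgG) and the adhesion gene BCAM (-0.64, adjusted p = 0.00467 against untreated cells) were lower as well. KRT7, a keratin of this epithelium, rose by 0.43 (adjusted p = 0.00414) and 0.50 (adjusted p = 0.00141). Another keratin gene of the list, KRT8, fell (-0.37, adjusted p = 0.0258, and -0.41, adjusted p = 0.0148), also without IgA replicate 3 (-0.34 and -0.38). MUC16, which encodes the tumour marker CA-125 and a partner of mesothelin, ranged from 27627 to 125721 normalised counts among the IgA libraries and was not called.

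With BDNF IgA 3 of 22 companions rose and 0 fell (KRT7, KLK6 and KLK7, the last of these kallikrein-related proteases at 0.75, adjusted p = 9.90e-04), which became 12 and 1 without BDNF IgA replicate 2, where 8.15% of all genes were called higher and 7.02% lower against 4.43% and 3.42% with it. With TSPAN7 IgA 1 rose and 3 fell, where 4.54% of all genes were called higher and 4.15% lower. KRT7 rose by 0.54 (adjusted p = 1.97e-08), EMX2 fell by 0.34 (adjusted p = 5.65e-05), and the mucins MUC16 and MUC1 fell by 0.47 and 0.54 (adjusted p = 0.0267 and 0.0126). For TSPAN7 against BDNF IgA, 2 rose and 8 fell (3.36% and 4.37% of all genes). These became 2 and 13 without BDNF IgA replicate 2 (8.34% and 9.17% of all genes). The list medians were 0.09, -0.06 and -0.19 in these 3 comparisons.

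Relatives and partners of the transcription factors, and some other regulators, were read from further lists. Over all genes, 12.7% were called higher and 11.6% lower with non-specific IgA against IgG. Against untreated cells the shares were 12.9% and 12.2% with non-specific IgA, 4.43% and 3.42% with BDNF IgA, and 4.54% and 4.15% with TSPAN7 IgA. The counts in these short lists were not tested against those shares. A list of relatives and other regulators had 11 genes tested with non-specific IgA. Of these, SOX9 fell (-0.69, adjusted p = 0.0102, and -0.83, adjusted p = 0.00371) and TEAD1 rose against untreated cells (0.30, adjusted p = 0.0309). In the second series, where 10 were tested, TEAD4 fell with BDNF IgA (-0.26, adjusted p = 0.0205) and SOX4 with TSPAN7 IgA (-0.28, adjusted p = 0.0469). Of 9 tested partners of the oestrogen receptor, the glucocorticoid receptor gene NR3C1 rose with non-specific IgA (0.52, adjusted p = 0.00215 against IgG), and 4 fell against IgG, among them the co-activator NCOA2 (-0.46, adjusted p = 0.00603). Against untreated cells 1 rose and 2 fell. Without IgA replicate 3, 1 partner rose and 3 fell against IgG, and 1 rose and 2 fell against untreated cells. Of 11 tested oestrogen-responsive genes 3 rose (AREG, CA12 and XBP1) and 1 fell (MYB) against IgG, also without IgA replicate 3. Against untreated cells 2 of them rose and 1 fell, or 4 and 1 without that library. AREG, a growth factor of the EGF family, rose from 8.61 ± 3.96 to 107 ± 19.1 normalised counts.

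Around cyclin E1, 3 of 16 genes rose and 2 fell against IgG with non-specific IgA, and 4 rose and 2 fell against untreated cells. The all-gene shares were 12.7% higher and 11.6% lower, and 12.9% and 12.2%, so the share that fell was near that of all genes. Without IgA replicate 3, 6 rose and 2 fell against IgG, and 5 rose and 2 fell against untreated cells. The all-gene shares were then 13.1% higher and 13% lower, and 13.3% and 13%. CDKN1A, an inhibitor of cyclin E and CDK2, rose by 1.99 (adjusted p = 1.85e-04) and CCND1, cyclin D1, by 0.84 (adjusted p = 1.36e-04) against IgG. E2F2, a factor of S-phase entry, fell by 1.42 (adjusted p = 1.34e-04), and SKP2, which targets cell-cycle inhibitors for degradation, by 0.58 (adjusted p = 0.0258). With BDNF IgA, cyclin A2 (CCNA2) fell (-0.19, adjusted p = 0.0165). With TSPAN7 IgA 3 rose, CCND1 (0.40, adjusted p = 6.74e-05), CCND3 (0.25, adjusted p = 0.0245) and CDK2 (0.25, adjusted p = 0.0116). None fell, and CCNE1 itself was at -0.0013. Over all genes 4.54% were called higher and 4.15% lower with TSPAN7 IgA, and 4.43% and 3.42% with BDNF IgA.

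Genes of folate uptake and use, which share a substrate with FOLR1, were called in both directions. With non-specific IgA 2 of 12 tested rose and 3 fell against IgG, where 12.7% of all genes rose and 11.6% fell. Without IgA replicate 3, 1 rose and 3 fell, where 13.1% of all genes rose and 13% fell. In the fit of all libraries the transporter gene SLC46A1 (-0.97, adjusted p = 0.0216) and SHMT1 (-0.74, adjusted p = 0.00345) were among those that fell. The hydrolase gene GGH rose (0.73, adjusted p = 0.0215), although not without IgA replicate 3 (0.55, adjusted p = 0.0715). With TSPAN7 IgA 2 of 12 rose, GGH (0.30, adjusted p = 0.00161) and MTHFD2 (0.22, adjusted p = 0.00259), and 2 fell, among them SHMT1 (-0.24, adjusted p = 0.00300). With BDNF IgA 0 rose and 2 fell, among them TYMS, the thymidylate synthase gene (-0.27, adjusted p = 0.00461). Over all genes 4.54% were called higher and 4.15% lower with TSPAN7 IgA, and 4.43% and 3.42% with BDNF IgA. Of 7 tested cadherins and catenins, the alpha-catenin gene CTNNA1 rose with non-specific IgA (0.34, adjusted p = 0.0155 against IgG), and CDH1, the epithelial cadherin, was lower with TSPAN7 than with BDNF IgA (-0.35, adjusted p = 0.0367).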

How the data were processed

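The data were 18 paired-end RNA libraries of OVCAR3 cells. Reads were trimmed (cutadapt) and mapped with STAR to GRCh37 by the authors, who deposited whole-number read counts per gene without scaling. The submitters' processing notes name cutadapt 1.8.1 and HTSeq 0.6.1 with build hg19, whereas the methods name featureCounts for this cell line. The use of strand was not given in the sources used here. Of 57820 rows in the second table, 2055 that repeated another row exactly were removed.

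Each series of 9 libraries was fitted on its own with edgeR 4.0.16 under R 4.3.3 (filterByExpr for low counts, TMM for scaling, robust quasi-likelihood F test, two-sided, Benjamini-Hochberg adjustment over all genes tested, called at 0.05). Whether the replicate numbers pair the libraries is not given, and the main fit used no block. Alternatives were DESeq2 1.42.0, limma 3.58.1 (voom with group weights), other scalings and filters, only the 6 libraries compared, a replicate block, and leaving out each library. Groups were taken from the sample titles. The members and 15 other gene lists were chosen with earlier results of these data known. All members were named, and of the other lists each called gene where there were 4 or fewer, otherwise the 4 with the largest changes and a group mean of at least 50. Some genes outside this rule, such as MUC16, are named for what they are known for, with their values seen. Counts over the lists without IgA replicate 3 or BDNF IgA replicate 2 were added after the data were seen. Some genes of these lists are not reported here. Scripts were tested on simulated data. Precision was taken from the spread between libraries. Gene positions and exon lengths are from GENCODE on GRCh37. Levels per kilobase use the union of annotated exons, which may differ from the transcripts present.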

Additional observations from a re-analysis of the deposited data

How the results depend on the processing

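With scaling by library size alone, or with only the 6 libraries compared, 0 members were called higher with non-specific IgA against IgG and 0 against untreated cells. With only those 6, 3 were lower against IgG, and 3 were lower with TSPAN7 IgA against untreated cells. All-gene calls moved too. Against IgG they were 1627 higher and 1334 lower of 17173 genes, from 2281 and 2096 of 18012. With non-specific IgA against untreated cells they were 1797 and 1522 of 17076, from 2332 and 2199 of 18012. With TSPAN7 IgA they were 1249 and 1226 of 18098, from 850 and 777 of 18732. Leaving out 1 library gave 0 to 1 member higher and 2 to 5 lower with non-specific IgA against IgG. Over all genes 1361 to 2533 were then higher and 1256 to 2753 lower. Against untreated cells 0 to 1 member was higher and 4 to 5 lower, with 1401 to 2527 and 1262 to 2721 over all genes. With BDNF IgA against untreated cells 0 to 4 members were higher (438 to 1563 over all genes). With TSPAN7 against BDNF IgA 2 to 4 members were lower (245 to 1758 over all genes).

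Log2 fold changes that turned were all of members not called. With scaling by library size these were MSLN with non-specific IgA (-0.17 against IgG and -0.14 against untreated cells), ESR1 with non-specific IgA against untreated cells (-0.071), CCNE1 with IgG (0.016) and TSPAN7 IgA (0.0011), MECOM with BDNF IgA (0.0094), and CDH6 with TSPAN7 against BDNF IgA (-0.012). CCNE1 with TSPAN7 IgA turned without mitochondrial and ribosomal RNA genes (0.0011), CDH6 with TSPAN7 against BDNF IgA with no filter on low counts (-2.9e-04), and SOX17 with IgG in limma voom (-0.0034). The cause was not tested. Leaving out 1 library, with non-specific IgA, MSLN ranged from -0.28 to 0.21 against IgG and -0.28 to 0.21 against untreated cells, and ESR1 from -0.0068 to 0.45 against untreated cells. With IgG the ranges were -0.0077 to 0.12 for PAX8, -0.12 to 0.086 for SOX17, -0.30 to 0.17 for ESR1, -0.56 to 0.0054 for FOLR1, -0.075 to 0.095 for MSLN, -0.14 to 0.037 for WFDC2 and -0.12 to 0.098 for CCNE1. With BDNF IgA against untreated cells they were -0.065 to 0.016 for SOX17, -0.052 to 0.020 for MECOM, -0.025 to 0.051 for WT1, -0.15 to 0.0024 for CDH6 and -0.015 to 0.12 for CCNE1. For CCNE1 with TSPAN7 IgA they were -0.020 to 0.030 against untreated cells and -0.12 to 0.013 against BDNF IgA, and for CDH6 -0.053 to 0.096 against BDNF IgA.

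Of the values under settings other than leaving out a library, 613 kept direction and side of the threshold, 10 turned, 11 lost and 8 gained a call, and 6 counts moved by over 1.5 times. With 1 library left out, 344 kept both, 31 turned, 34 lost and 6 gained a call, and 17 counts moved. With a replicate block, FOLR1 was called higher with BDNF IgA (0.26, adjusted p = 0.0378) and lower with TSPAN7 than with BDNF IgA (-0.36, adjusted p = 0.00513). All-gene calls then went from 830 higher and 640 lower to 995 and 768 with BDNF IgA. For TSPAN7 against BDNF IgA they went from 630 and 818 to 814 and 972. Same-numbered deviations correlated above 0.1 in only 1 pair of libraries, in IgG against untreated cells (0.247). With 3 libraries a group this cannot exclude pairing. ESR1, with 216 counts at the lowest, and the 3 libraries a group limit what could be detected.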

Other observations

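Pearson's r between members was computed across the 18 libraries, each centred on the untreated cells of its series. Among the members that fell with non-specific IgA, r ran from 0.58 (FOLR1 and CCNE1) to 0.95 (SOX17 and WT1). The IgA libraries in which these members fell are among the 18, so high values follow in part from the choice of genes. Such values cannot show whether the genes vary together apart from that fall. Pearson's r was 0.91 between WT1 and CDH6, 0.90 between WT1 and CCNE1, and -0.82 between PAX8 and WT1. FOLR1 had r of 0.83 with WT1, 0.82 with SOX17 and 0.75 with CDH6, and 0.86 with WFDC2, which itself had 0.74 with WT1. MSLN had 0.75 with WFDC2, 0.53 with FOLR1 and 0.07 with SOX17. MECOM had no r above 0.47 with another member. The libraries share treatments and, within a series, the untreated cells they are centred on, so these values describe the libraries and were not tested.

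Among 13347 genes, those whose pattern over the same 18 libraries was most like that of a member, by Pearson's r, were SOGA1 for SOX17 (0.99), DTX4 for WT1 (0.99), MDK, a secreted growth factor gene, for WFDC2 (0.97), ARRB2 for FOLR1 (0.97), DBR1 for CCNE1 (0.97), ARF3 for CDH6 (0.97), NFAT5 for PAX8 (0.95), TSPAN31 for MSLN (0.93), POMT1 for MECOM (0.93) and MTIF3 for ESR1 (0.82). Each value is the highest of that search, over libraries that include the non-specific IgA group, in which many genes were called. High values can follow from that shared difference alone, and they were not tested.

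WFDC2 lies in a cluster of protease inhibitor genes on chromosome 20. Of 15 listed neighbours 5 were tested. Against untreated cells 4.43% of all genes were called higher and 3.42% lower with BDNF IgA, and 4.54% and 4.15% with TSPAN7 IgA. For TSPAN7 against BDNF IgA the shares were 3.36% and 4.37%. With non-specific IgA they were 12.7% and 11.6% against IgG, and 12.9% and 12.2% against untreated cells. The calls below were not tested against these shares. PI3, the elastase inhibitor elafin, rose with BDNF IgA (log2 fold change 0.49, adjusted p = 2.11e-04, edgeR) and with TSPAN7 IgA (0.23, adjusted p = 0.0358) against the same untreated libraries. It was lower with TSPAN7 than with BDNF IgA (-0.25, adjusted p = 0.0269). With non-specific IgA, PI3 was not called with all libraries. Without IgA replicate 3 it was called higher against IgG (0.53, adjusted p = 0.0111) and untreated cells (0.40, adjusted p = 0.0406). WFDC5 fell with non-specific IgA against untreated cells, from 50.7 ± 19.5 to 12.1 ± 10.1 normalised counts. Among the mesothelial markers, KRT5 rose with non-specific IgA (0.80, adjusted p = 0.00593 against IgG) and fell with BDNF IgA (-0.63, adjusted p = 1.57e-07) and TSPAN7 IgA (-0.30, adjusted p = 0.00261), and UPK3B fell with non-specific IgA (-0.54, adjusted p = 0.00799 against IgG). COL1A1 and COL1A2 rose against IgG (0.64 and 0.66, adjusted p = 0.0201 and 0.0410), and neither call remained without IgA replicate 3 (0.41 and 0.28). The part of these genes in the members' changes was not tested.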
